A study of Mus musculus with 18 samples.

Results

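The 37 genes of the mouse mitochondrial genome were followed through nuclear RNA of embryonic stem cells. They are all genes that the GENCODE M21 annotation places on chromosome M of the mm10 build, and they were taken from a count table of 54446 genes in 18 libraries. They comprise 13 mRNA genes of 204 to 1824 bases, 2 rRNA genes and 22 tRNA genes of 59 to 75 bases. The rule rests on the annotation alone. All 37 were found in the table with the annotation's identifier and version, although 2 of them, the tRNA genes mt-Tg and mt-Tr, had no read in any library.

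The study concerned N6-methyladenosine (m6A), a methyl mark on RNA, and measured nuclear RNA in 9 groups of 2 libraries from C57BL/6 embryonic stem cells. Cells labelled Ythdc1_Control and Ythdc1_cKO were harvested after 0, 3 or 6 h with actinomycin D at 5 µg/ml. The second label was taken as a conditional knockout of Ythdc1, which encodes the nuclear reader of m6A. Cells labelled Mettl3_Control, Mettl3_KO1 and Mettl3_KO2 were harvested at 0 h. Mettl3 encodes the catalytic subunit of the m6A methyltransferase. All cells were grown in serum with LIF, CHIR99021 and PD0325901 for 48 h, and 0.1 µl of ERCC spike-in RNA was added to each nuclear RNA sample. The labels name neither the Cre nor the way the knockouts were made, nor whether KO1 and KO2 are clones. Nor do they say that the 2 libraries of a group came from separate cultures, so a p-value here reflects only how far the libraries of a group lie apart, which may be technical.

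Mitochondrial DNA is a small circle in the mitochondrial matrix, outside the nucleus. It is transcribed from both strands into long precursor RNAs by POLRMT, a polymerase of its own, with the factors TFAM, TFB2M and TEFM. The tRNAs lie between the mRNAs and rRNAs, and cutting them out at both ends releases most of the other transcripts. The mRNAs encode core subunits of respiratory complexes I, III and IV and of the ATP synthase, and the rRNAs form the mitochondrial ribosome. Actinomycin D binds DNA and blocks transcription, so the level of an RNA that remains after its addition is widely read as a measure of decay.

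Of the 37 genes, 28 are on the plus strand of the mm10 sequence and 9 on the minus strand. The minus strand carries 1 mRNA gene, mt-Nd6, and 8 tRNA genes. The tRNAs below were chosen because the results for the tRNA class rest on them. mt-Tl1 (chromosome M, 2676 to 2750, plus strand) and mt-Ti (3706 to 3774, plus strand) flank mt-Nd1, mt-Tm (3845 to 3913, plus strand) was the tRNA gene with the most reads in the Ythdc1 libraries, and mt-Tp (15356 to 15422, minus strand) had the most in the Mettl3 libraries. The sequences are GENCODE M21 transcripts, written 5′ to 3′ as DNA letters, with the anticodon in capitals.
mt-Tl1 (leucine): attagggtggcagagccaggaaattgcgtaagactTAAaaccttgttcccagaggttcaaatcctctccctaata
mt-Ti (isoleucine): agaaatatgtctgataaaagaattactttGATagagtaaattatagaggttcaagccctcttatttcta
mt-Tm (methionine): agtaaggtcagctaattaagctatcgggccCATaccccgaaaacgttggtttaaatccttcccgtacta
mt-Tp (proline): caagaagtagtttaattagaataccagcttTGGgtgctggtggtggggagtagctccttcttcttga

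Several mRNA genes have near-identical nuclear copies, so their counts are uncertain. The annotation holds 7 unprocessed pseudogenes side by side on the minus strand of chromosome 1 (24611535 to 24616197) that are at least 99% identical to mt-Co1, mt-Co2, mt-Atp6, mt-Co3, mt-Nd3, mt-Nd4l and mt-Nd4. The copy Gm29216 covers 31.3% of mt-Co1, its last 483 bases, and Gm28439 covers 63.6% of mt-Nd4. For the other 5 genes the copy covers nearly the whole gene. Less similar copies also met the 95% threshold of the search. On chromosome 2, Gm13340 is 97.6% identical over the whole of mt-Co1 and Gm13341 95.9% over mt-Co2. Gm13339, on the same chromosome, is 96.7% identical over 49.1% of mt-Nd2. On chromosome 13, Gm4076 is 95.2% identical over 52.3% of mt-Nd5. Their part in the counts was not tested. The window of mt-Co1 and the window of mt-Nd3 that hold a difference from the chromosome 1 copy are shown with the differing base in capitals. Positions are counted from 1 at the first base of the mitochondrial gene, with its base first.
mt-Co1, bases 1063 to 1080: ggaAttgttttatccaac
Gm29216, A1066T: ggaTttgttttatccaac
mt-Nd3, bases 1 to 17: atTaacctgtacactgt
Gm28438, T3C: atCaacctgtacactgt

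The libraries held 4950973 to 30989044 gene reads, of which 113365 to 915245 were mitochondrial, and 3932 to 33396 spike-in reads. Both libraries labelled cKO at 3 h stood apart, with spike-ins at 0.0277% and 0.0272% of gene reads, the lowest of all 18. The targeted gene did not check every label. Ythdc1 stood at 145 and 132 CPM (a count divided by the TMM-adjusted size of its library) in the control and 143 and 120 in those labelled cKO at 0 h (log2 change -0.07, adjusted p = 0.557). It was lower in those labelled cKO at 3 h (-1.78, adjusted p = 1.13e-17) and at 6 h (-1.38, adjusted p = 1.08e-13). Mettl3 was lower in KO2 (-0.61, adjusted p = 7.45e-10) and not detectably lower in KO1 (-0.10, adjusted p = 0.316). Counts over a whole gene cannot check a deletion of part of it. All 10 embryonic stem cell markers passed the filter in both experiments, while of the 10 fibroblast markers Dcn and Lum were at or near 0 in every library and Col1a1 had 1.19 to 5.40 CPM in the Ythdc1 and 96.3 to 274 CPM in the Mettl3 libraries.

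Fold changes below are log2 values from edgeR's quasi-likelihood test with their standard error (SE), for 2 libraries per group, and a change was called at an adjusted p below 0.05 over all genes tested. The TMM scale sets the typical gene to no change. The filter on low counts was passed by 20 of the 37 genes in the Ythdc1 experiment and by 15 in the Mettl3 experiment. A gene with reads in a single group passes through the group where it is high, so counts of calls over these genes are descriptions. Shares of all genes called are at hand for the main fit alone. Counts of calls with other scalings or with added reads thus have no background and are descriptions too. In bulk RNA, fewer cells or mitochondria in a preparation and less RNA in each cannot be told apart. Mitochondrial RNA in a nuclear preparation may also depend on how many mitochondria it carried, which was not tested. Differences between members were not tested.

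Among mitochondrial RNAs, leaving aside mRNAs with a near-complete copy on chromosome 1, the 2 rRNAs and mt-Co1 were highest in untreated control nuclear RNA. On the scale of CPM per kilobase, the 16S rRNA mt-Rnr2 was at 6553 and 5346, the 12S rRNA mt-Rnr1 at 5757 and 4598, and mt-Co1, the catalytic subunit of cytochrome c oxidase, at 3175 and 3078. The libraries of the 2 rRNAs overlapped, while mt-Co1 lay below both. The complex I subunit mt-Nd1 followed at 2098 and 1907, and mt-Cytb, the cytochrome b of complex III, at 896 and 815. Below them lay mt-Nd6 at 580 and 469, mt-Nd2 at 491 and 433, mt-Nd5 at 433 and 401, and mt-Nd4 at 317 and 302. Of these 4 complex I genes, mt-Nd6 and mt-Nd2 overlapped, mt-Nd2 and mt-Nd5 met, and mt-Nd4 lay apart below them. These levels divide by the whole gene, although 63.6% of mt-Nd4 and 31.3% of mt-Co1 lie in a near-identical copy. Reads with several placements entered no gene, so the places of mt-Nd4 and mt-Co1 in this order are uncertain and may be too low.

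The 5 mRNA genes with a near-complete copy on chromosome 1, and mt-Atp8, which overlaps mt-Atp6, were almost without reads. In the control at 0 h, mt-Co2 had 20 and 25 reads, mt-Co3 14 and 26, mt-Atp6 14 and 19, mt-Nd3 1 and 3, mt-Atp8 1 and 1, and mt-Nd4l 0 and 2. Their copies held more. Across the Ythdc1 libraries the copy of mt-Co2, Gm28661, had 207 to 798 reads against 1 to 30 for the gene itself. In the Mettl3 libraries the order was the opposite, with 6 to 23 reads for Gm28661 and 40 to 185 for mt-Co2. The 7 copies together had 2082 to 9113 reads per Ythdc1 library and 50 to 333 per Mettl3 library. Reads of a gene and its copy cannot be told apart where the sequences are the same. Gm28437, Gm10925, Gm28661, Gm10222 and Gm28439, the copy of part of mt-Nd4, are 100% identical to their genes over the aligned bases. How the counting came to place these reads on a gene or its copy was not tested.

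Reads of tRNA genes numbered 44 to 487 per library. In the Ythdc1 libraries 12 of the 22 tRNA genes had at least 10 reads in all, in the Mettl3 libraries 3. Different tRNAs were seen in the 2 experiments. mt-Tm had 589 reads over the 12 Ythdc1 libraries and 7 over the 6 Mettl3 libraries, and mt-Ti, mt-Tt and mt-Tw had 156, 129 and 81 against 0, which allows up to 3 reads each. mt-Tp had 499 and 1844. In all, tRNA reads numbered 1934 over the 12 Ythdc1 and 1937 over the 6 Mettl3 libraries, which differ in number and depth. The experiments share no library and no control, and the difference in the tRNAs seen was not tested.

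**Figure D1:**
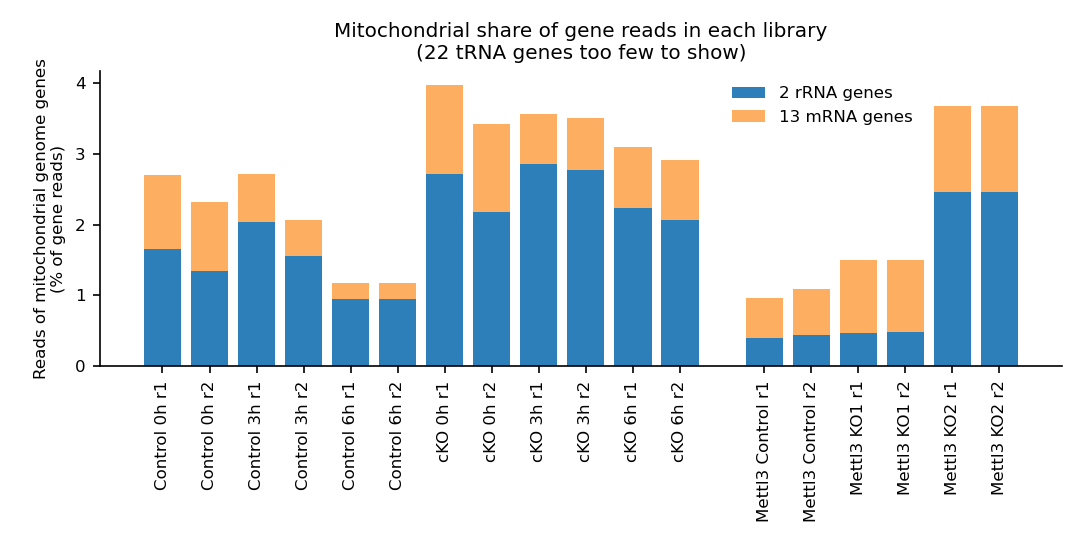
Reads of the 2 rRNA genes (blue) and 13 mRNA genes (orange) of the mitochondrial genome as a percentage of gene reads, 1 bar per library. The control at 6 h has the smallest bars of the Ythdc1 experiment, 1.18% and 1.17%, and Mettl3 KO2 the highest of the Mettl3 experiment, 3.68% in both libraries.

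Mitochondrial genes took between 0.958% and 3.98% of gene reads. In the Ythdc1 control they took 2.70% and 2.32% at 0 h, then 2.71% and 2.06%, and 1.18% and 1.17% in the end. The libraries labelled cKO held 3.98% and 3.42% at 0 h, then 3.57% and 3.51%, and 3.10% and 2.92% in the end. At every time both libraries labelled cKO lay above both control libraries. Over both genotypes the share averaged 3.11% (SD 0.738, n = 4) at 0 h and 2.09% (SD 1.06, n = 4) at 6 h, a difference of -1.02 percentage points that an exact two-sided permutation test over both genotypes did not separate (p = 0.2, 70 arrangements). That test ignores the difference between genotypes, and within each of them both 6 h libraries lay below both 0 h libraries. Per spike-in read the difference was -22.2 mitochondrial reads (exact permutation p = 0.0286). Without the rRNA genes the share went from 1.13% to 0.541%, a difference of -0.593 percentage points with no overlap between the times (exact permutation p = 0.0286, the smallest that 4 against 4 libraries can give).

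In control cells the 2 rRNAs made up a larger share of mitochondrial reads at the later times. They took 61.3% and 57.8% of mitochondrial reads at 0 h, then 74.8% and 75.4%, and 80.5% and 80.6% in the end. For libraries labelled cKO the same share was 68.2% and 63.6%, then 79.9% and 78.9%, then 72.3% and 70.8%. It thus lay above the control at 0 and 3 h and below it at 6 h. The sources used here do not say whether the rRNA removal kit also takes out mitochondrial rRNA, so these shares do not measure abundance in the cell.

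Nearly all measured mitochondrial mRNAs were lower after actinomycin D in control cells, each by its own amount. After 6 h, 18 of the 20 genes that passed the filter were lower than at 0 h and none higher, where 31.7% of all genes tested were lower. Their median log2 change was -2.91 and that of all genes 0.03. All 10 mRNAs that passed were lower, as were 7 of 8 tRNAs and 1 of 2 rRNAs. The tRNAs mt-Ta, mt-Tn, mt-Tt and mt-Tw reached 10 reads only in libraries at 0 h. They passed the filter through the group where they were high, so their calls against 0 h follow in part from the filter. Here and in the later counts against 0 h, such calls are descriptions. With scaling to spike-in reads, where the median gene shifted by -0.88, 19 were lower, and the share of all genes lower is not at hand. The calls of mt-Tp, mt-Ta, mt-Tn and mt-Co2 were lost without control 6 h replicate 2, that of mt-Tn also without control 0 h replicate 2 and that of mt-Co2 without either 0 h library.

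Among the mRNAs with the most reads, the complex I mRNAs mt-Nd1 and mt-Nd2, which follow the rRNAs on the plus strand, fell furthest. mt-Nd1 stood at 2008 and 1825 CPM at 0 h, then 390 and 259, and 80.4 and 73.1 in the end. No library of a later time reached one of an earlier time. The log2 change was -2.56 ± 0.19 (SE) at 3 h (adjusted p = 3.01e-05) and -4.64 ± 0.21 at 6 h (adjusted p = 1.40e-06), which left 4.01% of the starting CPM and 2.12% of the starting level per spike-in read. Its neighbour mt-Nd2 went from 509 and 450 CPM to 76.1 and 34.3 and then to 19.4 and 18.6, a change of -4.66 ± 0.38 at 6 h (adjusted p = 4.08e-05). As a ratio, the values at 3 h differed more between the 2 libraries of mt-Nd2 than of any other complex I mRNA named here.

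mt-Cytb and the minus-strand gene mt-Nd6 also lost most of their level. mt-Cytb had 1025 and 932 CPM at 0 h, then 255 and 234, and 68.9 and 76.1 in the end. Its change had the smallest SE of the mRNAs, -2.0 ± 0.07 at 3 h (adjusted p = 1.16e-17) and -3.75 ± 0.07 at 6 h (adjusted p = 9.30e-23). mt-Nd6 went from 301 and 244 CPM to 48 and 38 at 3 h (-2.66 ± 0.26, adjusted p = 0.000158) and 33.4 and 28.0 at 6 h. Most of its fall lay in the first 3 h: from 3 to 6 h it changed by -0.49 ± 0.30 (adjusted p = 0.255), where mt-Nd1 changed by -2.08 ± 0.19 (adjusted p = 0.000194).

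The falls of the complex I genes mt-Nd4 and mt-Nd5 at 6 h were smaller than that of mt-Nd1. mt-Nd5 had 790 and 732 CPM at 0 h, then 316 and 223, and 115 and 104 in the end (-2.80 ± 0.17, adjusted p = 5.81e-06). mt-Nd4 had 437 and 417, then 190 and 136, then 67.5 and 68.9 (-2.64 ± 0.15, adjusted p = 1.58e-06). At 6 h 14.4% of mt-Nd5 and 16% of mt-Nd4 remained on the CPM scale, and 7.63% and 8.47% per spike-in read. The end of mt-Nd5 overlaps that of mt-Nd6 on the opposite strand, and the sources used here do not give the strand setting of the counting. Reads of the opposite strand may thus be counted for any member, among them mt-Nd6 and mt-Tp, which was not tested.

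mt-Co1 and the rRNAs had the smallest changes of the genes with many reads. mt-Co1 stood at 4906 and 4755 CPM at 0 h and at 5395 and 4064 at 3 h, groups that overlapped (-0.03 ± 0.12, adjusted p = 0.851). At 6 h it was down to 2099 and 2113 CPM (-1.20 ± 0.12, adjusted p = 0.000133), or 43.6% of the start (23.1% per spike-in read). mt-Rnr1 had 5498 and 4391 CPM, then 6607 and 5986, then 2433 and 2390. Its change was 0.35 ± 0.13 at 3 h (adjusted p = 0.0577), a direction that turned to -0.17 with scaling to spike-in reads, and -1.04 ± 0.13 at 6 h (adjusted p = 0.000402). mt-Rnr2 had 10367 and 8457 CPM, then 13244 and 9295, then 7878 and 7955, and did not pass the test at 3 h (0.26 ± 0.20, adjusted p = 0.322; -0.26 with scaling to spike-in reads) or at 6 h (-0.25 ± 0.20, adjusted p = 0.322). With scaling to spike-in reads mt-Rnr2 was lower at 6 h (-1.16, adjusted p = 0.00148).

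**Figure D2:**
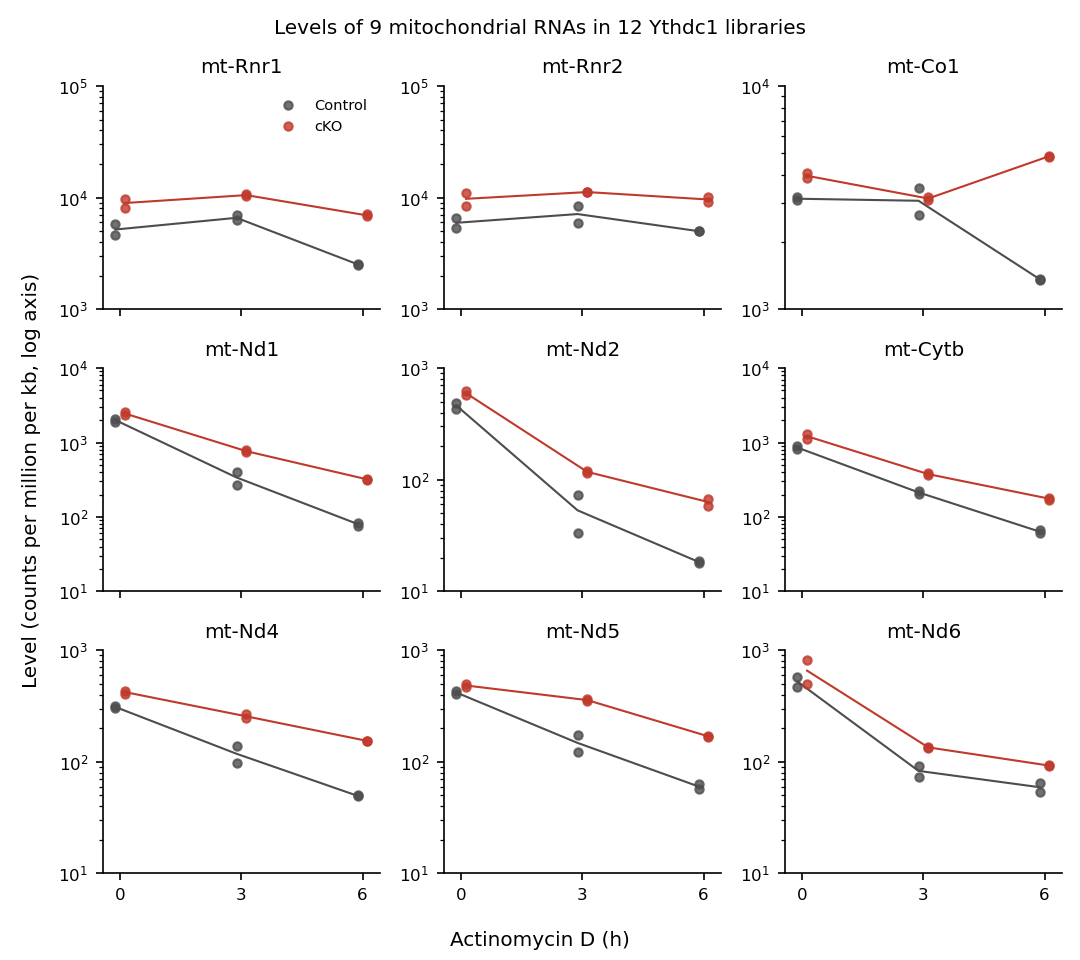
Level of 9 mitochondrial RNAs (CPM per kilobase, log axes that differ between panels) against hours of actinomycin D in the Ythdc1 control (grey) and the libraries labelled cKO (red). Points are libraries and lines join the means of 2. mt-Nd1 in the control goes from 2098 and 1907 at 0 h to 84.0 and 76.4 at 6 h, while mt-Rnr2 stays between 4980 and 8371.

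The 3 h samples already held 14 lower genes of 20, where 27.1% of all genes tested were lower. Spike-in scaling, with a median shift of -0.46, gave 17 lower genes. The 14 were 7 mRNAs (mt-Nd1, mt-Nd2, mt-Nd4, mt-Nd5, mt-Nd6, mt-Cytb and mt-Atp6) and 7 tRNAs, of which mt-Atp6, mt-Tl1 and mt-Tn lost their call without control 0 h replicate 2 or control 3 h replicate 2, and mt-Atp6 also without control 0 h replicate 1. Between 3 and 6 h, 8 genes were lower, where 18.5% of all genes were, and 1 was higher, where 20.0% were. The 8 were mt-Nd1, mt-Nd2, mt-Nd4, mt-Nd5, mt-Cytb, mt-Co1, mt-Co3 and mt-Rnr1. The calls of mt-Nd2 and mt-Co3 were lost without control 6 h replicate 2, that of mt-Nd2 also without control 6 h replicate 1 and that of mt-Co3 without control 3 h replicate 1. The gene that rose was mt-Tm, and its call was lost without control 3 h replicate 2, without either 6 h library and with scaling to spike-in reads, where the median gene shifted by -0.38.

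Among tRNAs, mt-Tm did not follow the others. It had 42 and 40 reads in the control at 0 h, then 29 and 10, and 52 and 52 in the end. Those labelled cKO had 28 and 72, then 38 and 45, then 65 and 116. From 0 to 6 h it changed by 0.49 ± 0.58 in the control (adjusted p = 0.484) and 0.70 ± 0.53 in the libraries labelled cKO (adjusted p = 0.286), and scaling to spike-in reads turned both to negative values, -0.42 and -0.27. The rise from 3 to 6 h was 1.94 ± 0.65 in the control (adjusted p = 0.0462) and 1.86 ± 0.54 in the libraries labelled cKO (adjusted p = 0.0291), a call lost without either cKO 3 h library, while spike-in scaling gave 1.54 (adjusted p = 0.105) and -0.93 (adjusted p = 0.156).

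The other 7 tRNAs that passed the filter fell to a few reads. mt-Tp, which lies on the minus strand, had 72 and 95 reads in the control at 0 h, then 29 and 13, and 14 and 8 in the end (-2.75 ± 0.66, adjusted p = 0.00441). mt-Tt had 38 and 28 reads, then 1 and 0, then 0 and 4. mt-Ti had 19 and 18, then 2 and 0, then 3 and 2. Both were thus nearly gone after 3 h, with overlapping values at 3 and 6 h for mt-Tt and 2 reads in the highest 3 h and the lowest 6 h library of mt-Ti. mt-Tl1 had 15 and 33 reads, then 21 and 4, then 2 and 3 (-3.03 ± 0.67, adjusted p = 0.00017). mt-Tw went from 10 and 10 reads to 0 and 0 at 6 h, mt-Tn from 3 and 8 to 0 and 0, and mt-Ta from 10 and 14 to 2 and 0. A count of 0 allows up to 3 reads, and the fitted fold of such a gene is no bound, so none is given.

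Most members were also lower after the chase in the libraries labelled cKO. At 6 h 17 of 20 genes were lower than at 0 h and none higher, where 31.3% of all genes were lower, with a median of -2.82 against 0.01 for all genes. With spike-in scaling and a median shift of -0.96, 19 were lower. Without cKO 6 h replicate 2 the calls of mt-Atp6, mt-Ta and mt-Tt were lost. mt-Nd1 had 2424 and 2267 CPM at 0 h, then 718 and 748, and 307 and 304 in the end (-2.94 ± 0.19, adjusted p = 1.28e-05). mt-Cytb had 1488 and 1292, then 419 and 441, then 207 and 194 (-2.79 ± 0.07, adjusted p = 1.84e-20). mt-Nd6 had 421 and 260, then 69.1 and 70.8, then 48.5 and 47.4 (-2.83 ± 0.27, adjusted p = 0.000113). All 3 were lower at each later time, with no overlap between times.

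mt-Co1 took another course in these libraries. It stood at 5953 and 6287 CPM at 0 h, then 4764 and 4919, and 7462 and 7530 in the end, so that the 6 h libraries were the highest. Its change from 0 to 6 h did not pass the test and depended on the scale (0.29 ± 0.12, adjusted p = 0.0767; -0.68 and lower with scaling to spike-in reads, adjusted p = 0.00333). From 3 to 6 h it rose by 0.63 ± 0.12 (adjusted p = 0.00749), where scaling to spike-in reads gave a fall, -2.17. The call was also lost without either cKO 3 h library or without cKO 6 h replicate 2. mt-Rnr1 changed by -0.37 ± 0.13 over 6 h (adjusted p = 0.0440), a call lost without cKO 0 h replicate 1, cKO 6 h replicate 1 or cKO 6 h replicate 2, and mt-Rnr2 by -0.02 ± 0.20 (adjusted p = 0.938).

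At 3 h in the libraries labelled cKO, 14 genes were lower than at 0 h, where 29.8% of all genes were, but the direction of several rested on the scale. With scaling to spike-in reads the median of all genes shifted by 1.86, 8 members were higher and 4 lower. mt-Nd1 changed by -1.68 ± 0.18 (adjusted p = 0.000215) and by 0.15 with spike-in scaling, and mt-Cytb by -1.69 ± 0.07 (adjusted p = 1.18e-16) and by 0.14. mt-Nd6 changed by -2.28 ± 0.25 (adjusted p = 0.000252) and by -0.44 with spike-in scaling (adjusted p = 0.104). From 3 to 6 h, 8 members were lower and 2 higher, where 18.8% and 15.3% of all genes were. With spike-in scaling and a median shift of -2.85, 16 were lower and none higher, and without cKO 6 h replicate 2 the number called went from 10 to 4.

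The decay comparison of the study is the difference between genotypes in the change from 0 h, fitted as an interaction. At 6 h, 5 mitochondrial mRNAs had a higher (less negative or positive) change in the libraries labelled cKO than in the control and none a lower one, where 9.77% of all genes were higher in this contrast. mt-Nd1 differed by 1.70 ± 0.26 (adjusted p = 0.00559), mt-Co1 by 1.49 ± 0.17 (adjusted p = 0.00148), mt-Nd5 by 1.28 ± 0.22 (adjusted p = 0.00874), mt-Nd4 by 1.19 ± 0.20 (adjusted p = 0.00575) and mt-Cytb by 0.96 ± 0.10 (adjusted p = 1.05e-07). These 5 encode subunits of complexes I, III and IV. With scaling to spike-in reads, where the median of all genes shifted by -0.09, the 5 differed by 1.65, 1.44, 1.23, 1.14 and 0.91 and were called again, and mt-Rnr1 was added at 0.62. Leaving out any 1 library left 5 or 6 calls.

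What remained at 6 h makes the size plain. Of the CPM at 0 h, 4.01% of mt-Nd1 was left in the control and 13% in the libraries labelled cKO. For mt-Cytb these shares were 7.41% and 14.5%, for mt-Nd5 14.4% and 35.0%, for mt-Nd4 16% and 36.5%, and for mt-Co1 43.6% and 122%. Per spike-in read the shares were smaller by more than 1.5 times, 2.12% and 6.66% for mt-Nd1, 3.93% and 7.41% for mt-Cytb, 7.63% and 17.9% for mt-Nd5, 8.47% and 18.7% for mt-Nd4, and 23.1% and 62.5% for mt-Co1, which then lay below its start in both genotypes. The share was higher in the libraries labelled cKO for each of the 5 on both scales. mt-Nd6, annotated on the other strand, had 11.3% and 14.1% of its CPM left (5.99% and 7.26% per spike-in read). Its difference between genotypes did not pass the test (0.32 ± 0.39, adjusted p = 0.649). The difference between mt-Nd6 and the other mRNAs was itself not tested, and the SE of mt-Nd6 was the larger.

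The rRNAs and mt-Nd2 did not pass the test of this difference. mt-Rnr1 differed by 0.67 ± 0.18 (adjusted p = 0.0507), mt-Rnr2 by 0.23 ± 0.29 (adjusted p = 0.662) and mt-Nd2 by 1.39 ± 0.50 (adjusted p = 0.115). No tRNA passed either, and mt-Tp differed by -0.05 ± 1.05 (adjusted p = 0.984), an error wide enough to hold the differences seen for the mRNAs. When the reads of the 7 chromosome 1 copies were added to their genes, 10 members were higher in place of 5. The added ones were mt-Nd3 (2.66), mt-Nd4l (2.06), mt-Atp6 (1.47), mt-Co3 (1.39) and mt-Co2 (0.60). These values rest mostly on reads of the copies. On their own counts mt-Co2 (-1.65) and mt-Co3 (-0.45) had the opposite sign, mt-Atp6 differed by 1.49, and none of them was called. mt-Nd3 and mt-Nd4l did not pass the filter alone. The share of all genes higher in the fit with added reads is not at hand. Counted alone, all 7 copies were higher in the same contrast, from 0.64 ± 0.16 for Gm28661 (adjusted p = 0.0046) to 2.66 ± 0.96 for Gm28438 (adjusted p = 0.0464).

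**Figure D3:**
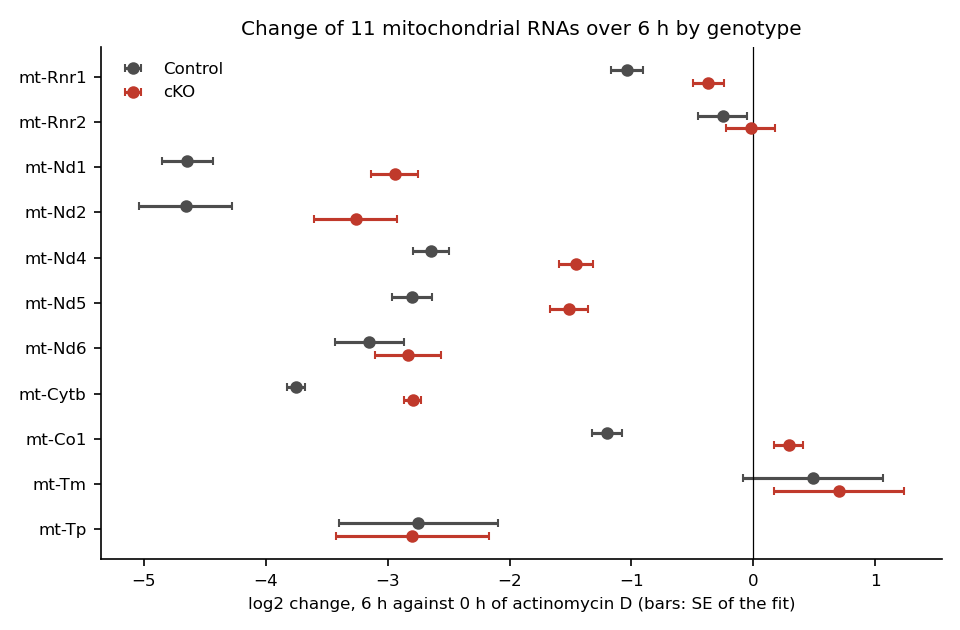
Log2 change from 0 to 6 h of actinomycin D for 11 mitochondrial RNAs in the Ythdc1 control (grey) and the libraries labelled cKO (red), with the SE of the fit as bars. mt-Nd1 lies at -4.64 in the control and -2.94 in the libraries labelled cKO, and the bars of mt-Nd6, mt-Tp and mt-Tm overlap between genotypes.

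At 3 h the difference was carried by fewer genes and by the scale. mt-Nd5 differed by 1.06 ± 0.21 (adjusted p = 0.0160) and mt-Cytb by 0.31 ± 0.09 (adjusted p = 0.0182), where 11.0% of all genes were higher. Both calls were lost without control 0 h replicate 1, cKO 0 h replicate 2 or cKO 3 h replicate 2, that of mt-Nd5 also without cKO 3 h replicate 1 and that of mt-Cytb also without control 3 h replicate 2. mt-Nd1 differed by 0.88 ± 0.25 (adjusted p = 0.0574), mt-Nd6 by 0.38 ± 0.36 (adjusted p = 0.562), mt-Rnr1 by -0.11 ± 0.18 (adjusted p = 0.755) and mt-Rnr2 by -0.06 ± 0.29 (adjusted p = 0.926). Scaling to spike-in reads shifted the median of all genes by 2.36, called 17 members higher and turned mt-Rnr1 to 2.24 and mt-Rnr2 to 2.30.

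The libraries labelled cKO also started from higher levels of some members. At 0 h, 8 of 20 were higher than in the control, where 13.5% of all genes were. mt-Rnr1 had 5498 and 4391 CPM in the control and 9310 and 7776 in the libraries labelled cKO (0.79 ± 0.13, adjusted p = 0.00444). mt-Rnr2 had 10367 and 8457 against 17441 and 13430 (0.71 ± 0.20, adjusted p = 0.0424), and mt-Cytb 1025 and 932 against 1488 and 1292 (0.51 ± 0.06, adjusted p = 1.38e-06). In none of the 3 did the groups overlap.

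The rest of the 0 h calls were mt-Nd4 (0.44 ± 0.13, adjusted p = 0.0465) and 4 tRNAs. mt-Tl1 had 15 and 33 reads in the control against 44 and 51, mt-Ti 19 and 18 against 48 and 31, mt-Tw 10 and 10 against 20 and 29, and mt-Tn 3 and 8 against 29 and 12. Their log2 differences ran from 1.30 for mt-Tl1 to 2.18 for mt-Tn. mt-Tn reached 10 reads only in the libraries labelled cKO at 0 h. It passed the filter through the group where it was high, so its call and its fold are descriptions. mt-Nd1 did not pass (0.29 ± 0.18, adjusted p = 0.286), nor did mt-Nd6 (0.33 ± 0.24, adjusted p = 0.381), and both turned negative with spike-in scaling, at -0.08 and -0.05. With that scaling, which shifted the median of all genes by -0.35, 2 members remained higher, mt-Rnr1 at 0.42 and mt-Tn, to which the same limit applies. Without control 0 h replicate 1, control 0 h replicate 2 or cKO 0 h replicate 1, 3 were higher. Each call but those of mt-Rnr1 and mt-Cytb was lost without at least 1 single library.

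Differences between genotypes were also seen during the chase. At 3 h, 8 members were higher in the libraries labelled cKO, where 22.3% of all genes were: mt-Nd5 (1.27), mt-Nd1 (1.18), mt-Nd2 (1.15), mt-Nd4 (1.12), mt-Cytb (0.82), mt-Rnr1 (0.68), mt-Rnr2 (0.65) and mt-Ti. mt-Ti had 2 and 0 reads in the control and 15 and 8 in the libraries labelled cKO. With spike-in scaling, which shifted the median gene by 2.0, 17 were higher. Without cKO 3 h replicate 1, 5 were: the calls of mt-Nd2, mt-Rnr2 and mt-Ti were lost, that of mt-Nd2 also without cKO 3 h replicate 2, that of mt-Ti without control 3 h replicate 2 and that of mt-Rnr2 without either.

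At 6 h, 8 members were higher, where 19.7% of all genes were. These were mt-Nd1 (1.99 ± 0.20, adjusted p = 0.000234), mt-Co1 (1.83 ± 0.12, adjusted p = 3.23e-05), mt-Nd2 (1.76), mt-Nd4 (1.63), mt-Nd5 (1.49), mt-Cytb (1.46 ± 0.07, adjusted p = 4.21e-14), mt-Rnr1 (1.45) and mt-Rnr2 (0.94). The calls of mt-Nd2 and mt-Rnr2 were lost without either control 6 h library, that of mt-Nd2 also without cKO 6 h replicate 2 and that of mt-Rnr2 without cKO 6 h replicate 1. mt-Co1, for example, had 2099 and 2113 CPM in the control and 7462 and 7530 in the libraries labelled cKO. mt-Nd6, with 33.4 and 28.0 CPM against 48.5 and 47.4, did not pass (0.65 ± 0.30, adjusted p = 0.144). With spike-in scaling and a median shift of -0.44, 7 were higher and mt-Co2, with 9 and 8 reads against 1 and 5, was lower (-2.03, adjusted p = 0.0126). The 6 h comparisons between genotypes, the changes from 0 h and their difference share libraries, so they are not independent of each other.

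Ratios between members need no scale across libraries. Per kilobase, mt-Co1 stood at 1.51 and 1.61 times mt-Nd1 in the control at 0 h, 8.57 and 9.73 times at 3 h, and 16.2 and 17.9 times at 6 h. In the libraries labelled cKO the ratio was 1.52 and 1.72, then 4.11 and 4.07, then 15.1 and 15.4. The genotypes overlapped at 0 h and were apart at 3 h and at 6 h, with the control higher. The ratio of mt-Rnr2 to mt-Rnr1 was 1.14 and 1.16 in the control at 0 h, then 1.21 and 0.937, and 1.95 and 2.01 in the end. For libraries labelled cKO it was 1.13 and 1.04, then 1.05 and 1.08, then 1.42 and 1.36. The 2 rRNAs, which come from 1 precursor, thus changed unequally, mt-Rnr1 losing more than mt-Rnr2 by 6 h in both genotypes.

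The ratio between genes annotated on opposite strands moved as well. Whether the reads counted came from those strands is not known. mt-Nd5 to mt-Nd6 stood at 0.747 and 0.856 in the control at 0 h, then 1.87 and 1.67, and 0.978 and 1.06 in the end. In the libraries labelled cKO it was 0.614 and 0.933, then 2.64 and 2.66, then 1.83 and 1.83. It was highest at 3 h in both genotypes, and higher in the libraries labelled cKO at 3 and 6 h.

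**Figure D4:**
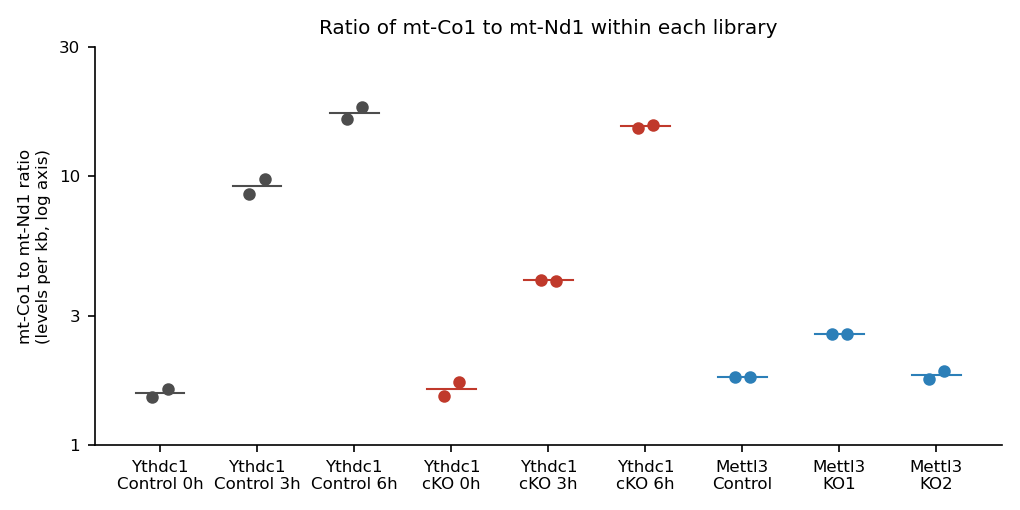
Ratio of mt-Co1 to mt-Nd1 within each library (levels per kilobase, log axis), with bars at the mean of 2 libraries. In the Ythdc1 libraries the ratio goes from 1.51 to 1.72 at 0 h to 15.1 to 17.9 at 6 h, and Mettl3 KO1 lies at 2.59 in both libraries, above the Mettl3 control and KO2.

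In the Mettl3 experiment, without actinomycin D, mitochondrial RNAs were higher in the libraries labelled KO1 and in those labelled KO2, in different proportions. KO1 and KO2 are used here as labels, since Mettl3 was not detectably lower in KO1. They took 0.958% and 1.09% of gene reads in the control, 1.5% in both KO1 libraries, and 3.68% and 3.68% in KO2. The rRNA genes made up 41.0% and 39.7% of mitochondrial reads in the control, 30.8% and 32.1% in KO1, and 66.8% and 66.7% in KO2. The 3 groups did not overlap in either measure. Both groups are compared with the same 2 control libraries.

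Among libraries labelled KO1, 10 of the 15 members that passed the filter were higher and none lower, where 23.9% of all genes were higher, with a median of 0.48 against -0.01 for all genes. mt-Co1 led, with 2412 and 2865 CPM in the control and 5747 and 5717 in KO1 (1.12 ± 0.10, adjusted p = 0.00389). mt-Nd1 had 836 and 995 against 1374 and 1370 (0.58 ± 0.10, adjusted p = 0.0204), mt-Nd5 888 and 964 against 1407 and 1345 (0.57 ± 0.03, adjusted p = 9.92e-14), and mt-Nd6 195 and 207 against 302 and 290 (0.56 ± 0.07, adjusted p = 0.000261). All KO1 libraries lay above the control libraries for these 4 genes.

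The other KO1 calls were smaller or rested on few reads. mt-Co2 had 40 and 74 reads against 110 and 91 (0.56 ± 0.23, adjusted p = 0.0365), a call lost without control replicate 1 or without either KO1 library. The call of mt-Nd6 was lost without either control library, at 0.52 and 0.61. mt-Nd4 (0.48 ± 0.07), mt-Cytb (0.40 ± 0.08), mt-Rnr2 (0.26 ± 0.06), mt-Nd2 (0.20 ± 0.06) and mt-Rnr1 (0.18 ± 0.03, adjusted p = 1.71e-07) completed the list. The rRNAs were thus among the smallest changes in KO1.

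In KO2 all 15 members tested were higher, where 24.4% of all genes were, with a median of 1.25 against -0.03. The rRNAs rose furthest. mt-Rnr1 had 681 and 727 CPM in the control, 772 and 821 in KO1, and 5536 and 5554 in KO2 (2.98 ± 0.03, adjusted p = 6.41e-61). mt-Rnr2 had 3155 and 3490, then 3891 and 4054, then 19582 and 19448 (2.55 ± 0.06, adjusted p = 1.03e-05). Both KO2 libraries stood several times above every other Mettl3 library for both rRNAs.

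The rises of the mRNAs in KO2 were smaller. mt-Nd6 had 547 and 475 CPM (1.35 ± 0.07, adjusted p = 8.57e-07), mt-Nd5 2402 and 2275 (1.34 ± 0.03, adjusted p = 7.59e-22), mt-Cytb 1526 and 1561 (1.25 ± 0.08, adjusted p = 0.000297) and mt-Nd1 1737 and 1716 (0.91 ± 0.10, adjusted p = 0.0054). mt-Co1 had 4950 and 5211 (0.94 ± 0.10, adjusted p = 0.00551), a call lost without KO2 replicate 2. The other 7 mRNAs and mt-Tp ran from 0.76 for mt-Nd3 to 1.94 for mt-Nd4l, and the calls of mt-Nd3, mt-Nd4l and mt-Co3, which have few reads, were lost without control replicate 1 or KO2 replicate 1, those of mt-Nd4l and mt-Co3 also without KO2 replicate 2 and that of mt-Nd4l without control replicate 2. mt-Tp, the tRNA gene that passed here, had 172 and 254 reads in the control, 363 and 240 in KO1, and 467 and 348 in KO2 (0.87 ± 0.12, adjusted p = 7.83e-09). With spike-in scaling, which shifted the median gene by 0.17 in KO1 and 0.53 in KO2, 11 members were higher in KO1 and 15 in KO2.

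**Figure D5:**
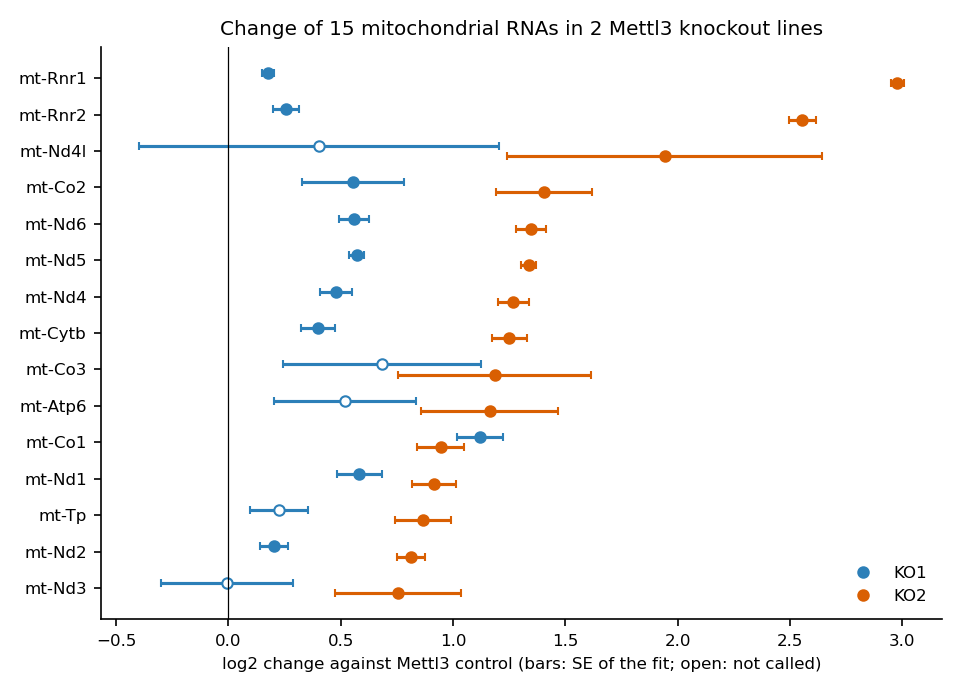
Log2 change against the Mettl3 control for 15 mitochondrial RNAs in KO1 (blue) and KO2 (orange), with the SE of the fit as bars and open points where the change was not called. mt-Rnr1 lies at 0.18 in KO1 and 2.98 in KO2, while mt-Co1 lies at 1.12 and 0.94.

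Set directly against KO1, 11 of 15 members were higher in KO2 and none lower, where 21.6% of all genes were higher. mt-Rnr1 differed by 2.80 ± 0.03 (adjusted p = 3.70e-60) and mt-Rnr2 by 2.30 ± 0.06 (adjusted p = 1.70e-05). mt-Cytb (0.85), mt-Nd4 (0.79), mt-Nd6 (0.79), mt-Nd5 (0.77), mt-Nd2 (0.61) and mt-Tp (0.64) followed, with mt-Nd4l, mt-Co2 and mt-Nd3. The call of mt-Nd4l was lost without any 1 of the KO1 and KO2 libraries and that of mt-Nd3 without KO1 replicate 2 or KO2 replicate 1. mt-Co1 did not differ detectably (-0.17 ± 0.10, adjusted p = 0.279; 0.21 with scaling to spike-in reads), nor did mt-Nd1 (0.33 ± 0.10, adjusted p = 0.0790). mt-Co1 stood at 1.79 and 1.78 times mt-Nd1 in the control, 2.59 and 2.59 times in KO1, and 1.77 and 1.88 times in KO2. The ratio of mt-Rnr2 to mt-Rnr1 was 2.80 and 2.90, then 3.04 and 2.98, then 2.14 and 2.11. KO2 was lowest in the second ratio, and KO1 highest in both.

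Other RNAs that report on the fraction or on other cells moved in the same libraries, and their part in the mitochondrial results was not tested. The summed level of 8 abundant cytoplasmic mRNAs averaged 8703 CPM in the control at 0 h, 12901 at 3 h and 15621 at 6 h, and 8075, 12772 and 15991 in the libraries labelled cKO. In the control at 6 h, 5 of the 8 were higher than at 0 h and 2 lower, where 33.1% and 31.7% of all genes were. In the Mettl3 control, KO1 and KO2 it averaged 13229, 15257 and 12095 CPM, with 6 of 8 members higher in KO1, and 2 higher and 4 lower in KO2. The 5 nucleus-retained RNAs summed to 14341, 20173 and 16173 CPM in the Ythdc1 control over time, 20767, 21229 and 22941 in the libraries labelled cKO, and 22015, 16860 and 17709 in the Mettl3 groups. Malat1 and Rn7sk carried these sums. At 6 h against 0 h, Meg3 and Rn7sk (0.91 in the control, 1.24 in the libraries labelled cKO) were higher and the other 3 lower in both genotypes: Malat1 (-0.38 and -0.58), Neat1 (-2.35 and -3.73) and Kcnq1ot1 (-2.38 and -2.49). Of the 5, none was higher and 4 were lower in KO1, and 1 was higher and 2 were lower in KO2. The background for both lists was 23.9% of all genes higher and 22.2% lower in KO1, and 24.4% higher and 26.4% lower in KO2. In the libraries labelled cKO at 6 h, 31.3% of all genes were lower than at 0 h, and the share higher is not at hand.

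Of the 10 embryonic stem cell markers, 9 were higher in KO1, while 1 was higher and 8 were lower in KO2. Of all genes tested, 23.9% were higher and 22.2% lower in KO1, and 24.4% higher and 26.4% lower in KO2. Of 8 fibroblast feeder markers tested, 4 were higher and 1 lower in KO1, and 7 were higher and none lower in KO2. The sum of all 10 fibroblast markers averaged 3239, 4994 and 5758 CPM in the Mettl3 control, KO1 and KO2, and was made up mostly of Fn1, which encodes fibronectin. Col1a1, a fibrillar collagen, had 105 and 101 CPM in the control, 96.4 and 96.3 in KO1, and 270 and 274 in KO2. Dcn and Lum, which mark fibroblasts, did not exceed 0.583 CPM in any library. In the Ythdc1 experiment the sum averaged 2561, 4290 and 4995 CPM in the control at 0, 3 and 6 h. In the libraries labelled cKO it averaged 3271, 2827 and 4198. Against the control at each time, 7 of 10 stem cell markers were lower in the libraries labelled cKO, and 1, 2 and 1 higher. Of 7 fibroblast markers tested, 3, 1 and 1 were higher and 0, 3 and 3 lower. Of all genes, 13.5%, 22.3% and 19.7% were higher, and the share lower is not at hand. In the control at 6 h against 0 h, 5 of the 7 were higher and none lower, where 33.1% and 31.7% of all genes were.

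Nuclear genes for the mitochondrial RNA machinery were listed as well. Of 8 mtDNA transcription genes tested, 7 were lower and 1 higher in the control at 6 h, with a median of -1.22 against 0.03 for all genes. Of all genes tested, 31.7% were lower and 33.1% higher in that comparison, which is the background for the lists that follow. The polymerase gene Polrmt rose (1.15 ± 0.07, adjusted p = 4.08e-16), while the elongation factor Tefm (-2.0), Mterf3 (-1.43) and Mterf4 (-1.0) fell. Among 12 RNA processing genes 4 were higher and 6 lower: Hsd17b10 (1.67) rose, and Trmt10c (-2.11), its partner in the RNase P that cuts tRNAs at their 5′ end, fell. Of 5 polyadenylation and stability genes 3 were lower, among them the poly(A) polymerase Mtpap (-1.22), and Lrpprc (0.43), which binds mitochondrial mRNAs, was higher. Of 3 decay genes, the helicase and nuclease of the degradosome, Supv3l1 (-0.28) and Pnpt1 (-0.31), were lower.

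In the decay difference at 6 h few of these genes were called, where 9.77% of all genes were higher and 9.35% lower. Tfam, which packages mtDNA and starts transcription, was higher (0.58 ± 0.13, adjusted p = 0.000824) and Polrmt lower (-0.47 ± 0.11, adjusted p = 0.00136). Grsf1, an RNA-binding protein of mitochondrial RNA granules (0.81 ± 0.10, adjusted p = 6.24e-08), and Slirp, the partner of LRPPRC (1.15 ± 0.18, adjusted p = 7.04e-06), were higher among the 5 polyadenylation and stability genes, as were Ptcd2 (0.77) among 12 processing genes and Pnpt1 (0.37) among 3 decay genes. Grsf1 at 0 h was lower with the cKO label (-0.74 ± 0.07, adjusted p = 3.80e-11). None of 15 genes for modification of mitochondrial rRNA and tRNA was called. Of 17 mitochondrial aminoacyl-tRNA synthetase genes 1 was higher and 4 were lower.

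Against a background of 23.9% of all genes higher and 22.2% lower in KO1, 6 of 9 transcription genes, 10 of 12 processing genes, 4 of 4 polyadenylation and stability genes and 2 of 3 decay genes were higher and none lower, among them Grsf1 (1.42), Fastkd2 (0.95), Mtpap (0.77), Pnpt1 (0.65), Elac2 (0.47), the RNase Z of tRNA 3′ ends, and Tfam (0.41). In KO2, with 24.4% of all genes higher and 26.4% lower, these counts were 1, 5, 2 and 3 higher and 1, 2, 1 and 0 lower. Grsf1 (1.65), Pnpt1 (0.94), Mtpap (0.84), Fastkd2 (0.83) and Elac2 (0.73) were higher there and Tfam (-0.26) was lower. Among 17 synthetase genes, 7 were higher and 4 lower in KO1, and 8 higher and 5 lower in KO2.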

How the data were processed

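The authors deposited raw HTSeq read counts per gene without normalization, and the table of the series and the sample files differed in 0 cells. Per the submitters' processing notes, CASAVA, Trimmomatic 0.38, HISAT2 2.1.0 and the mm10 genome were used. The sources used here do not give the strand setting, gene models or targets of rRNA removal. Reads with several placements (7.87% to 25.2% of reads) were in a summary line and entered no gene. They averaged 12.2%, 18.9% and 25.1% in the Ythdc1 control at 0, 3 and 6 h. In the libraries labelled cKO they averaged 11.8%, 19.0% and 23.9%, and in the Mettl3 control, KO1 and KO2 8.83%, 9.01% and 8.00%. The effect of this rise on members with nuclear copies was not tested.

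Each experiment was fitted separately with edgeR 4.0.16 in R 4.3.3: TMM factors, the default filter (minimum count 10), 1 coefficient per group, robust quasi-likelihood F test, Benjamini-Hochberg adjustment over 17900 genes (Ythdc1) or 21802 (Mettl3). SE is the log2 change divided by the root of F. CPM used TMM-scaled library sizes, with no pseudocount. The biological coefficient of variation was 6.52% and 4.09%. The scripts were tested on simulated data.

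Replicate numbers did not pair libraries (correlation of deviations -0.034 to 0.043 over 18 group pairs). Copies were sought with BLAST 2.17.0 among annotated transcripts, at 95% identity over 100 bases. Any hit on chromosome 18 was left out, so a copy there would be missed. No genome sequence of the build was at hand, although a search of the nuclear chromosomes had been planned. All members could be named; test values are given for called members and always for mt-Rnr1, mt-Rnr2, mt-Nd1, mt-Cytb and mt-Nd6, and up to 4 genes per machinery list by p. The members and lists were chosen with earlier results of these data known.

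Alternatives were DESeq2 1.42.0 size factors and Wald test, library size alone, spike-in scaling, TMM without chromosome M, other filters, a replicate block, 1 fit of 18 libraries, fits of the compared libraries alone and each library left out. The read floor behind a count of 0 was 3 reads and covers counting error alone.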

Additional observations from a re-analysis of the deposited data

Results flagged for a closer look

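Several contrasts between groups differed under a test of the difference itself. In the difference between genotypes of the change from 0 to 6 h, 5 members had a higher change in the libraries labelled cKO: mt-Nd1 (1.70 on the log2 scale), mt-Co1 (1.49), mt-Nd5 (1.28), mt-Nd4 (1.19) and mt-Cytb (0.96). At 3 h the same term was called for mt-Nd5 (1.06) and mt-Cytb (0.31).

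The libraries labelled Mettl3 KO2 were higher than those labelled KO1, in which Mettl3 itself was not detectably lower, for 11 members. These were mt-Rnr1 (2.80), mt-Rnr2 (2.30), mt-Nd4l (1.54), mt-Cytb (0.85), mt-Co2 (0.85), mt-Nd4 (0.79), mt-Nd6 (0.79), mt-Nd5 (0.77), mt-Nd3 (0.76), mt-Tp (0.64) and mt-Nd2 (0.61). Groups of 2 libraries are too small for a test of a value far from the others.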

How the results depend on the processing

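All counts of calls among members stayed within 1.5 times with DESeq2 size factors, library size alone, TMM without chromosome M, no filter and the replicate block. The share of all genes called is not at hand for any setting but the main fit. Scaling to spike-in reads gave 12 calls for cKO 3 h against 0 h (8 higher, with mt-Co1 1.49, mt-Nd5 1.40, mt-Nd4 1.11, mt-Nd1 0.15 and mt-Cytb 0.14), 16 for cKO 6 h against 3 h (mt-Co1 -2.17, mt-Tm -0.93), 2 for cKO against control at 0 h (mt-Nd1 -0.075, mt-Nd6 -0.050), 17 at 3 h and 17 for the decay difference at 3 h (mt-Rnr1 2.24, mt-Rnr2 2.30), and in control 3 h against 0 h mt-Rnr1 -0.17 and mt-Rnr2 -0.26. The DESeq2 Wald test gave 5 calls for cKO against control at 0 h and 4 for the decay difference at 3 h. Requiring 50 reads in 2 libraries tests fewer members and gave 7, 9, 8 and 8 calls for the control and cKO changes at 3 and 6 h, 4 for cKO against control at 0 h and 1 for the decay difference at 3 h. In 1 fit of 18 libraries 6 members were called in KO1 and 7 in KO2 against KO1, and mt-Rnr2 in cKO 6 h against 0 h was 0.040 (0.074 with no filter). Fits of the compared libraries alone, which use fewer samples, gave 3 calls for cKO against control at 3 h and 1 for the decay difference at 3 h. Adding the reads of the copies, chosen after seeing the data as was leaving out the cKO 3 h libraries, gave 13 for cKO against control at 6 h and 10 for the decay difference at 6 h. The calls added in that decay difference rest mostly on reads of the copies. The mitochondrial share differed by -22.2 reads per spike-in read (exact permutation p = 0.0286) and by -0.593 without the rRNA genes. Where no construction is named, the cause was not tested.

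With 1 library left out, calls ranged from 12 to 18 and 14 to 18 for control 3 h and 6 h against 0 h, 6 to 11 for control 6 h against 3 h, 13 to 15, 13 to 19 and 4 to 10 for the same in cKO, 3 to 6, 5 to 10 and 6 to 7 for cKO against control at 0, 3 and 6 h, 0 to 5 and 5 to 6 for the decay differences, and 8 to 12, 12 to 14 and 9 to 11 for KO1, KO2 and KO2 against KO1. The share difference ranged from -1.35 to -0.708. Small values that turned sign ranged from -0.0159 to 0.50 for mt-Rnr2 in control 3 h against 0 h, -0.21 to 0.18 for mt-Rnr2 in cKO 6 h against 0 h, -0.0666 to 0.62 for mt-Nd6 in cKO against control at 0 h, and, in the decay difference at 3 h, -0.28 to 0.042 for mt-Rnr1 and -0.29 to 0.22 for mt-Rnr2. With the replicate number as a block, mt-Rnr1 in the decay difference at 6 h was called (0.66), as were mt-Rnr1 in control 3 h against 0 h (0.35), mt-Rnr2 in control 6 h against 3 h (-0.49), and mt-Nd6 in cKO against control at 3 h (0.72) and mt-Nd1 in its decay difference (0.90). The calls of mt-Co1 in cKO 3 h against 0 h (-0.34), mt-Atp6 in cKO 6 h against 3 h (-2.01), mt-Nd4 at 0 h (0.44), mt-Nd2 in KO1 (0.20) and mt-Nd4l in KO2 against KO1 (1.55) were lost. Depth limits the tRNAs and the mRNAs with a near-complete copy on chromosome 1, which rest on a few reads.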
